A study of Mus musculus with 4 samples.

Results

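Genes of ribosome biogenesis and of the RNA polymerases were followed in RNA-seq of mouse pyloric stomach. A gene belonged to the set where its symbol matched the name patterns of nucleolar, small-subunit and large-subunit assembly factors (Nop, Nol, Noc, Utp, Rrp, Imp, Gnl and Npm with a number, and single names such as Fbl, Ncl, Mybbp1a, Dkc1 and Tcof1), of DEAD-box (Ddx) and WD-repeat (Wdr) genes, or of polymerase subunits (Polr1, Polr2, Polr3), with Ddx58 and Ddx60 left out. The annotation holds 199 such symbols, 193 of them protein-coding and 6 of them pseudogene copies. Of these, 79 had a row in the authors' deposited table, which holds the 2701 genes that passed their threshold of 0.05 on the adjusted p. The other matches were not analysed here.

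Both groups were C57BL/6 mice with floxed alleles of the Hippo pathway kinases Lats1 and Lats2 (Lats1fl/fl;Lats2fl/fl), taken 8 weeks after tamoxifen. WT mice carried no Cre. Lats1/2iΔLgr5 mice also carried Lgr5-CreER, a tamoxifen-inducible recombinase made only in Lgr5-positive stem cells of the gland base, so that the deletion reaches those cells and their progeny and not the rest of the tissue. Each group had 2 libraries, and the labels do not say more of their origin than that they are duplicates, so p-values measure the spread between these libraries, which may be technical. The comparison asks which transcripts differ once both kinases can be lost.

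Ribosome production starts in the nucleolus, where RNA polymerase I transcribes the long ribosomal RNA precursor and RNA polymerase III supplies the small ribosomal RNA made elsewhere in the nucleus. Small nucleolar ribonucleoproteins (snoRNPs) modify the precursor, and large assemblies of Utp, Rrp, Nop, Noc and Ddx proteins fold, cut and mature it as the small and the large subunit. Cells that grow and divide need many new ribosomes, and in the stomach such cells sit in the isthmus and base of the glands.

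Nearly all members with a row were higher in the Lats1/2iΔLgr5 pylorus. A rise was called for 75 of the 79 and a fall for 4 in the authors' deposited table, against 1158 genes that rose and 1543 that fell in the whole table. From the deposited p-values, 13137 genes were inferred to have been tested, of which 20.6% were called, 8.81% as higher and 11.7% as lower. By comparison, 40.9% of the 193 protein-coding matches had a row. Counted by role, 58 of 84 ribosome biogenesis factors had a row (69.0%), against 8 of 29 polymerase genes (27.6%), 4 of 21 other DEAD-box genes (19.0%) and 8 of 55 other WD-repeat genes (14.5%). Of all 21951 annotated protein-coding genes, 11.9% had a row. These shares count genes too low to be tested in their denominators, unlike the 20.6%, since the files do not name the tested genes. Whether the shares of the other DEAD-box and WD-repeat genes differed from that of all genes was not tested.

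The sizes of the increases were those of any gene that rose. Members that rose had a median log2 fold change of 1.08 (quartiles 0.87 and 1.36), and the other 1083 listed genes that rose had 1.09. By the ratio of mean normalized counts, 45 members rose by at least 2-fold and 5 by at least 3-fold. The deposited log2 fold changes were smaller, such as 1.48 for Dkc1 against 1.59 in edgeR's fit, so fewer members reach those folds there. In the authors' deposited table, 38 members had an adjusted p under 0.001. The share of other listed genes past the same limits was not computed, so these counts do not set the members apart. In edgeR's quasi-likelihood test on the listed genes alone, 75 members were higher and 4 lower. However, 42.9% and 57.1% of the 2700 genes tested were called in those directions, since the table was already chosen for a difference. Adjusted p-values of this edgeR test lay between 0.0117 and 0.0284 for the 79 members. The values from the authors' deposited table printed below beside edgeR's estimates belong to the authors' own test and are often far smaller. Groups did not overlap in any of the 79 members, which holds for 99.9% of the listed genes. Without Lats1/2iΔLgr5 replicate 2, which leaves 1 library against 2, edgeR called no member and only 5 of all 2701 genes, while the members' median log2 fold change was 0.89 against 1.05 with all libraries. Each of the 79 kept its sign in that fit, which follows from groups that did not overlap.

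**Figure D1:**
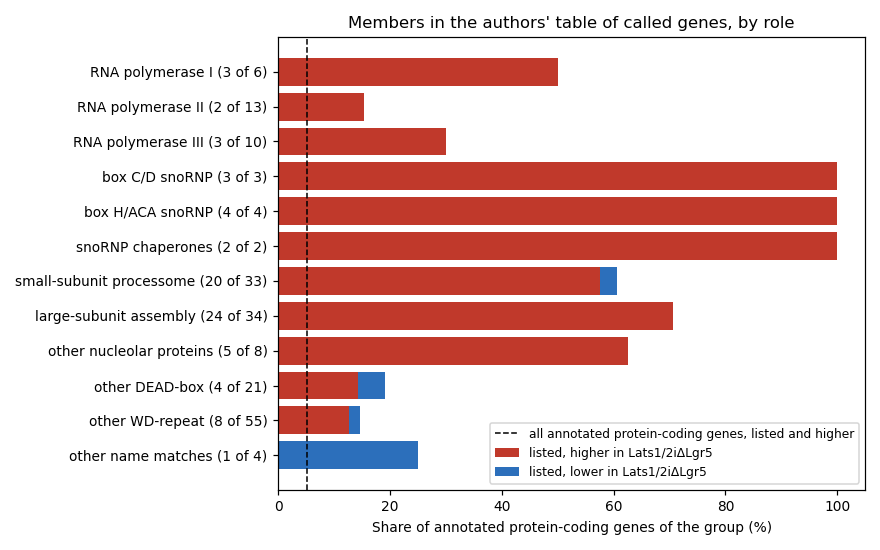
Share of the annotated protein-coding genes of each role (horizontal axis, percent) that had a row in the authors' deposited table, split into genes higher (red) and lower (blue) in Lats1/2iΔLgr5, with the number of genes beside each role. The dashed line marks the 5.1% of all annotated protein-coding genes that had a row and were higher. Every snoRNP core and chaperone gene of the name patterns had a row and rose, while 14.3% of the other DEAD-box and 12.7% of the other WD-repeat genes were listed as higher.

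Across the whole table, listed genes held between 13413629 and 17689207 counts per library. Lats1, the floxed gene that checks the labels, had 2152 and 1974 normalized counts in WT and 942.5 and 1129 in Lats1/2iΔLgr5, a log2 fold change of -0.99 ± 0.17 (SE; adjusted p = 1.43e-05, authors' deposited table). Lats2 was not analysed here. Of the 27 genes of a cell cycle list, 24 had a row and all 24 rose, and their summed level was 13633 and 20284 in WT against 37904 and 42455 in Lats1/2iΔLgr5. Of 7 surface mucous cell genes, 6 had a row and all 6 fell, from sums of 4497510 and 4779800 to 2430770 and 1976660, so the markers of the labelled epithelium were present in every library. No gene of the gland mucous, chief cell, smooth muscle, T cell or B cell and plasma cell lists had a row. The cell cycle and surface mucous levels thus differed between the same groups as the ribosome biogenesis genes described below, upward in the first and downward in the second. Their part in those results was not tested. In bulk RNA from sections, fewer or more cells of a type and less or more RNA per cell cannot be told apart.

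Promoter sequences of the members are shown first, because genes of this kind are known for the E-box CACGTG, the element that MYC and related factors bind, which can stand at their start sites. RefSeq (GRCm38.p6) gave 73 windows of 300 bases (250 before the start and 50 after it) for 67 of the 79 members. CACGTG, the same on both strands, was in 10 of these windows (13.7%), against 11.7% of the windows of other listed genes that rose, 8.65% of those of genes that fell and 7.15% of all promoters. CATTCC, the core of the element that TEAD factors bind, was searched on both strands (also as GGAATG) and shares no overlap with CACGTG. It was in 2 of the 73 windows (2.74%), against 15.1% for other genes that rose, 12.4% for genes that fell and 14.7% of all promoters. The median number of CG dinucleotides per window was 22 in members, 21 and 18 in the listed genes that rose and fell, and 7 in all promoters, so base composition differed beside the motif shares. A match is a description of letters and not of binding.

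The 3 stretches below are the 100 bases just before the RefSeq start, on the strand of the gene, with CACGTG in capitals. Nop2 (chr6:125131783-125131882, plus strand) and Nol11 (chr11:107189382-107189481, minus strand) were 2 members that rose with the motif close before the start, first base 60 and 43 bases upstream. Polr1a (chr6:71908953-71909052, plus strand), the catalytic subunit gene of polymerase I, rose and had no CACGTG in its window.
Nop2: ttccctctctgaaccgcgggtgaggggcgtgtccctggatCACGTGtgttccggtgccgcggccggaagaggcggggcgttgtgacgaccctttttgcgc
Nol11: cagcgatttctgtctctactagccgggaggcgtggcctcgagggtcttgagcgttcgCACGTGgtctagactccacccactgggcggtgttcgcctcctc
Polr1a: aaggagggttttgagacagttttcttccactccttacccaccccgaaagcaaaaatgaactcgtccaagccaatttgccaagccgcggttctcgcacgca

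Of the 10 members with the motif, Utp14b fell and the others rose. In Utp14b, whose stretch is not shown, the motif also lay close before the start, first base 63 bases upstream. A motif close before the start was thus found in members of both directions. In Mybbp1a, Pes1, Polr3e, Utp20, Utp4 and Wdr43 the motif lay after the start, and in Wdr46 12 bases before it.

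The 3 listed Polr1 genes, which encode subunits of RNA polymerase I, the enzyme of the ribosomal RNA genes, rose by 2.01-fold to 2.93-fold. Polr1a (ENSMUSG00000049553, chr6:71909053-71984935), which encodes the largest, catalytic subunit, had 347.0 and 276.8 normalized counts in WT and 827.6 and 1002 in Lats1/2iΔLgr5. Its level rose 2.93-fold (log2 fold change 1.55 ± 0.22, SE, with adjusted p = 0.0117 in edgeR's test). The authors' deposited table gave a log2 fold change of 1.45 with adjusted p = 1.31e-07. Both Lats1/2iΔLgr5 libraries stood far above the higher WT library. Polr1b, the second largest subunit, went from 345.8 and 204.0 to 605.7 and 854.3, a log2 fold change of 1.41 ± 0.33 (adjusted p = 0.00155, authors' deposited table). WT 1 lay well above WT 2 and Lats1/2iΔLgr5 2 well above Lats1/2iΔLgr5 1, but the groups did not overlap. Polr1e, a subunit outside the catalytic core, had 141.3 and 142.3 in WT and 233.6 and 335.3 in Lats1/2iΔLgr5, a log2 fold change of 1.00 ± 0.30 (adjusted p = 0.0255, authors' deposited table). The median over the 3 genes was 1.41 and ranged from 1.08 to 1.72 with single libraries left out. Polr1c and Polr1d, which polymerase III shares, and the initiation factor gene Rrn3 had no row.

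Of 13 Polr2 genes, Polr2e and Polr2b had a row, and both changed least among the polymerase genes. Polr2e, a subunit shared by all 3 nuclear polymerases, had 1071 and 1061 normalized counts in WT and 1498 and 1600 in Lats1/2iΔLgr5, a 1.45-fold rise (log2 fold change 0.54 ± 0.15, adjusted p = 0.0115 in the authors' deposited table). Polr2b, the second largest subunit of polymerase II, went from 1195 and 1143 to 1556 and 1822, also 1.45-fold (0.53 ± 0.16, adjusted p = 0.0273 in the authors' deposited table). The replicates of each group lay close together and the groups were well apart, but the steps were small. With 15.4% of the Polr2 genes listed, this compares with 11.9% of all annotated protein-coding genes and 20.6% of the genes inferred to have been tested.

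Among the genes of RNA polymerase III, Polr3e rose 1.91-fold and Polr3g 1.76-fold. Polr3e had 513.6 and 375.0 normalized counts in WT and 742.4 and 955.9 in Lats1/2iΔLgr5, a log2 fold change of 0.94 ± 0.25 (adjusted p = 0.00848, authors' deposited table). Polr3g, which has the paralog Polr3gl as an alternative in the enzyme, went from 386.2 and 273.5 to 531.5 and 627.6, or 0.81 ± 0.25 (adjusted p = 0.0314, authors' deposited table). In both genes Lats1/2iΔLgr5 2 was above Lats1/2iΔLgr5 1, and WT 1 above WT 2. Without WT replicate 2, edgeR no longer called Polr3g (log2 fold change 0.59, adjusted p = 0.0732) or Polr2b (0.50, 0.0519), and without Lats1/2iΔLgr5 replicate 1 it no longer called Polr2b, Polr2e and Polr3g (adjusted p = 0.0529, 0.0627 and 0.0635).

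**Figure D2:**
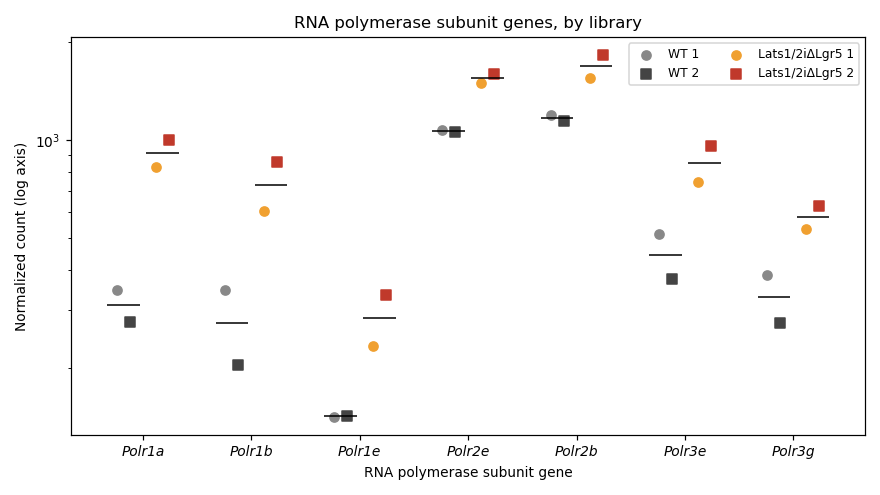
Normalized counts (log axis) of 7 RNA polymerase subunit genes, one point per library and a bar at the mean of each group. Both Lats1/2iΔLgr5 libraries lie above both WT libraries in each gene, with the widest steps in Polr1a and Polr1b and the narrowest in Polr2e and Polr2b.

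The core proteins of both classes of snoRNP rose without exception. Box C/D snoRNPs methylate ribosomal RNA, and box H/ACA snoRNPs turn uridine into pseudouridine. Fbl (ENSMUSG00000046865, chr7:28169710-28179269), the methyltransferase, had 1061 and 1079 normalized counts in WT and 2484 and 2911 in Lats1/2iΔLgr5, or 1070 ± 12.3 against 2697 ± 302 (SD, n = 2). That is a 2.52-fold rise (log2 fold change 1.33 ± 0.15, adjusted p = 6.23e-11 in the authors' deposited table). Its WT libraries were almost equal and lay far below either Lats1/2iΔLgr5 library. The scaffold genes followed: Nop56 went from 749.6 and 625.4 to 1512 and 2242 (1.45 ± 0.24, adjusted p = 6.2e-06 in the authors' deposited table). Nop58 went from 1338 and 1132 to 2452 and 3320 (1.23 ± 0.20, adjusted p = 9.47e-06 in the authors' deposited table). In both, the step from WT exceeded the gap between the Lats1/2iΔLgr5 libraries, of which replicate 2 was the higher.

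Among the box H/ACA genes, Dkc1, which encodes the pseudouridine synthase dyskerin, rose most. It had 453.0 and 375.0 normalized counts in WT and 1058 and 1440 in Lats1/2iΔLgr5, a 3.02-fold rise (log2 fold change 1.59 ± 0.23, adjusted p = 1.76e-07 in the authors' deposited table). Its partner Gar1 went from 449.2 and 381.6 to 852.9 and 1007 (1.16 ± 0.20, adjusted p = 2.25e-05 in the authors' deposited table), and WT and Lats1/2iΔLgr5 did not come near each other. Nhp2, the subunit that binds the guide RNA fold, went from 576.7 and 687.1 to 1168 and 1397 (1.02 ± 0.19, adjusted p = 1.28e-04 in the authors' deposited table). Nop10, the smallest of these proteins, went from 782.4 and 603.3 to 1215 and 1176 (0.79 ± 0.19, adjusted p = 0.00485 in the authors' deposited table). Nop10 was the one gene of the 4 in which Lats1/2iΔLgr5 1 was the higher library, and without that replicate edgeR no longer called it (adjusted p = 0.0615).

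The chaperones of snoRNPs and of polymerase I rose as well. Tcof1, which encodes the nucleolar protein treacle that binds polymerase I, had 291.5 and 231.6 normalized counts in WT and 724.3 and 801.9 in Lats1/2iΔLgr5, a 2.92-fold rise (log2 fold change 1.55 ± 0.22, adjusted p = 8.36e-08 in the authors' deposited table). Nolc1, which encodes its structural relative, went from 699.1 and 580.1 to 1225 and 1798 (1.24 ± 0.24, adjusted p = 1.66e-04 in the authors' deposited table). The libraries of each group lay close in Tcof1, whereas in Nolc1 the Lats1/2iΔLgr5 libraries stood apart.

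The small-subunit processome is the assembly that folds and cuts the precursor of the small subunit, and 19 of its 33 members rose and 1 fell. Rcl1 (ENSMUSG00000024785, chr19:29101375-29143929), which acts in an early cleavage of the precursor, had the largest ratio of mean normalized counts of all members. It had 94.65 and 76.10 normalized counts in WT and 277.1 and 454.9 in Lats1/2iΔLgr5, a 4.29-fold rise (log2 fold change 2.10 ± 0.35, adjusted p = 9.02e-06 in the authors' deposited table). Its Lats1/2iΔLgr5 libraries differed by 1.64-fold, and with replicate 2 left out the log2 fold change was 1.70. In the authors' deposited table Mybbp1a was above Rcl1 (log2 fold change 1.81 against 1.78). Utp20, a very long scaffold protein, went from 310.4 and 242.6 to 716.2 and 934.0 (1.58 ± 0.24, adjusted p = 1.31e-06 in the authors' deposited table). Heatr1, the counterpart of yeast Utp10, went from 419.0 and 351.8 to 823.0 and 1273 (1.44 ± 0.27, adjusted p = 6.17e-05 in the authors' deposited table). Rrp9, a protein of the U3 snoRNP, went from 162.8 and 173.2 to 368.5 and 506.5 (1.38 ± 0.26, adjusted p = 2.11e-04 in the authors' deposited table). In all 4 genes the lower Lats1/2iΔLgr5 library stood clear of the higher WT library.

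The other 15 genes of the processome that rose, among them Wdr75, Wdr43, Rrp12, Nop14, Nol6 and Utp15, did so by 1.36-fold (Utp6) to 2.81-fold (Wdr75). Utp6 was the one member whose call edgeR lost with replicate numbers as a block. The median over the 20 genes with a row was 1.02 and ranged from 0.81 to 1.22 with single libraries left out. Imp3, Imp4, Utp3, Utp11, Utp18, Utp23, Nop9 and Wdr36 were among the 13 without a row.

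Large-subunit assembly factors gave the longest list, with 24 of 34 genes listed and all 24 higher. Rrp15, a factor of the large-subunit precursor, had 155.2 and 142.3 normalized counts in WT and 431.9 and 535.4 in Lats1/2iΔLgr5, a 3.25-fold rise (log2 fold change 1.70 ± 0.24, adjusted p = 2.55e-07 in the authors' deposited table). Its WT libraries differed little against the step between the groups. The helicase gene Ddx18 went from 331.9 and 295.6 to 672.7 and 837.1 (1.27 ± 0.21, adjusted p = 1.66e-05 in the authors' deposited table), and the helicase gene Ddx27 from 562.8 and 552.6 to 1050 and 1228 (1.03 ± 0.18, adjusted p = 1.85e-05 in the authors' deposited table). In both, the WT replicates were close and the Lats1/2iΔLgr5 libraries well above them. Wdr12, which works in one complex with Pes1 and Bop1, went from 230.9 and 179.8 to 510.7 and 671.4 (1.53 ± 0.26, adjusted p = 1.69e-05 in the authors' deposited table). Its partners moved less, Pes1 by 1.80-fold (adjusted p = 5.62e-04) and Bop1 by 1.70-fold (adjusted p = 0.00981), both from the authors' deposited table. The difference between the 3 partners was not tested.

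By the ratio of mean normalized counts, Rrp1b rose most among the large-subunit genes, with replicates that lay apart in both groups. Its normalized counts were 194.3 and 124.6 in WT and 417.4 and 680.8 in Lats1/2iΔLgr5, a 3.44-fold rise (log2 fold change 1.79 ± 0.36, adjusted p = 1.67e-04 in the authors' deposited table). The value was 1.39 with Lats1/2iΔLgr5 replicate 2 left out, where Rrp15 had 1.54. The authors' deposited table also placed Rrp15 above Rrp1b (log2 fold change 1.56 against 1.52). The remaining genes, which include the GTPase genes Gnl2 and Gnl3, the methyltransferase gene Nop2, Noc2l, Noc3l, Mrto4, Ppan and Rrs1, rose by 1.56-fold (Nip7) to 2.68-fold (Ddx31). The median over the 24 genes was 1.08 and ranged from 0.90 to 1.26 with single libraries left out. Ebna1bp2, Ddx24, Ddx54, Ddx55, Nol9 and Rrp1 were among the 10 without a row.

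**Figure D3:**
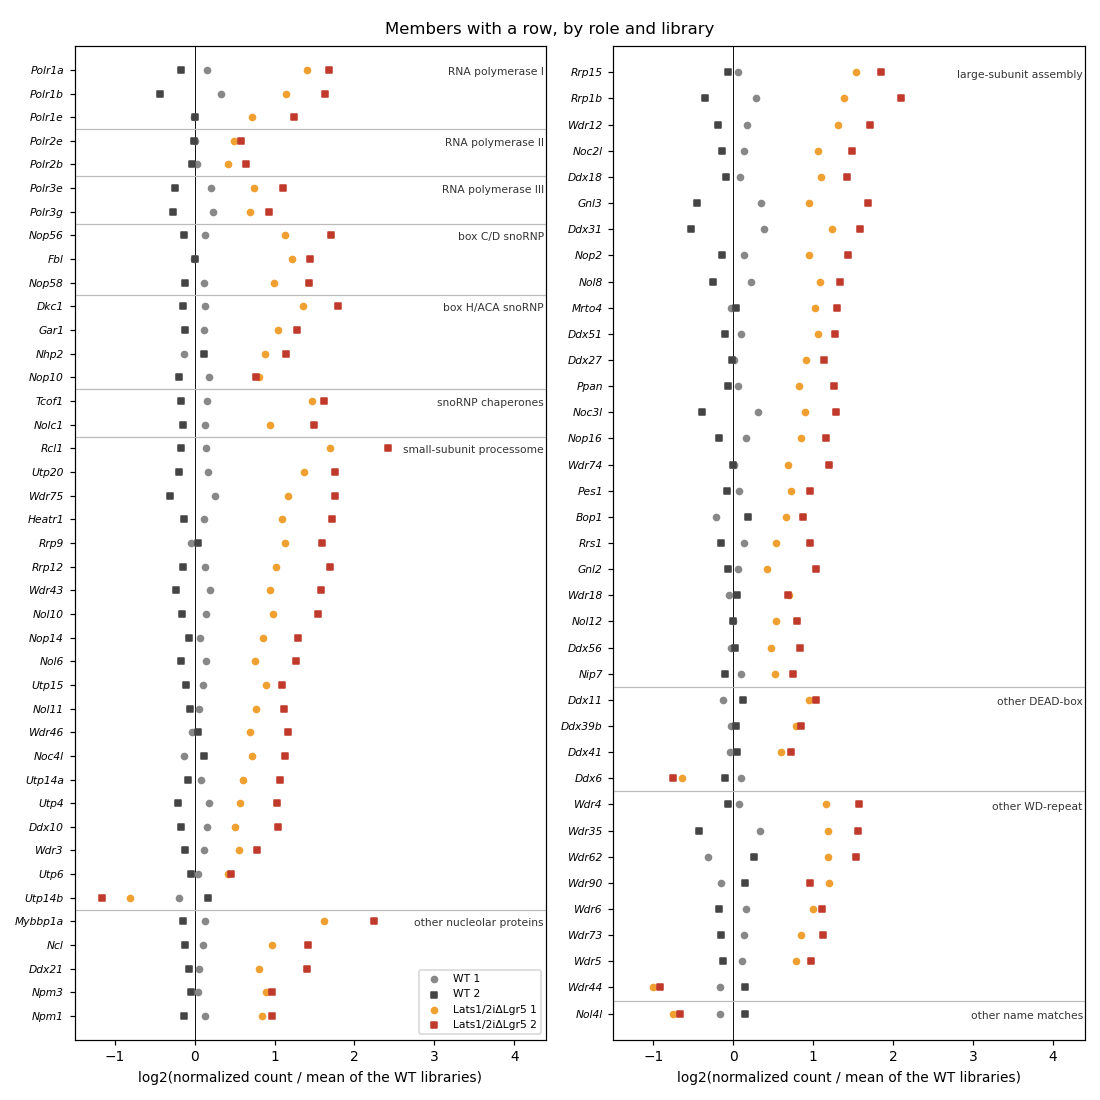
Level of 78 members with a row in each library, as log2 of the normalized count over the mean of the WT libraries (horizontal axis), ordered by role and by fold change. Of the genes shown, 74 have both Lats1/2iΔLgr5 libraries (orange and red) above both WT libraries (grey), and Utp14b, Ddx6, Wdr44 and Nol4l have both below.

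Transcripts of other nucleolar proteins rose with the assembly factors, with 5 of 8 genes listed and all 5 higher. Ddx50, Nol7 and Npm2 had no row. Mybbp1a (ENSMUSG00000040463, chr11:72441355-72451768), a nucleolar protein that binds MYB, had 884.6 and 730.1 normalized counts in WT and 2471 and 3820 in Lats1/2iΔLgr5, a 3.90-fold rise (log2 fold change 1.96 ± 0.25, adjusted p = 5.17e-10 in the authors' deposited table). Its Lats1/2iΔLgr5 libraries differed by 1.55-fold, and the lower of them was still far above WT. Ncl, nucleolin, went from 7061 and 6024 to 12839 and 17518 (1.21 ± 0.20, adjusted p = 2.87e-06 in the authors' deposited table). Npm1, nucleophosmin, went from 7608 and 6334 to 12457 and 13585 (0.90 ± 0.15, adjusted p = 1.16e-05 in the authors' deposited table). Npm3, of the same family, went from 408.9 and 386.0 to 736.1 and 774.5 (0.93 ± 0.18, adjusted p = 1.98e-04 in the authors' deposited table). The groups were far apart in all 3, and the Lats1/2iΔLgr5 libraries were closer together in both Npm genes than in Ncl. Ddx21, a helicase of the nucleolus, rose 2.20-fold (adjusted p = 2.27e-04, authors' deposited table).

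Per kilobase of annotated exon, Npm1 was the most abundant member, with a level of 2616 normalized counts in WT and 4886 in Lats1/2iΔLgr5. Ddx6 stood at 2032 and 1258 on that scale, and Ncl at 642.2 and 1490. Exon lengths were merged over all annotated transcripts of a gene (2665 bases for Npm1 and 10188 for Ncl), so this order depends on them. Before division by length, the WT means were 6971 for Npm1, 6542 for Ncl and 16329 for Ddx6. The lowest per kilobase was Wdr62, a WD-repeat protein of the mitotic spindle poles, at 7.69 and 19.9. Members thus covered a wide range of levels, and genes at both ends of it had risen.

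The 4 members that fell came from 4 different name families. Ddx6 (ENSMUSG00000032097, chr9:44604892-44640731), a helicase that represses and decays messenger RNA in the cytoplasm, had 17480 and 15178 normalized counts in WT and 10504 and 9718 in Lats1/2iΔLgr5, a 1.62-fold fall (log2 fold change -0.69 ± 0.14, adjusted p = 3.63e-04 in the authors' deposited table). Wdr44, which binds the vesicle traffic protein Rab11, went from 988.1 and 1229 to 554.1 and 586.2 (-0.96 ± 0.19, adjusted p = 2.9e-04 in the authors' deposited table). Nol4l, a gene with a nucleolar name, went from 1639 and 2047 to 1096 and 1162 (-0.71 ± 0.17, adjusted p = 0.00543 in the authors' deposited table). In each of the 3, the Lats1/2iΔLgr5 libraries lay close together and clear of WT. TMM scaling moved log2 fold changes up by a median of 0.36. With it, edgeR no longer called Ddx6 (-0.33, adjusted p = 0.0873) and Nol4l (-0.34, adjusted p = 0.110). Without Lats1/2iΔLgr5 replicate 1 it no longer called Nol4l (log2 fold change -0.67).

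Utp14b (ENSMUSG00000079470, chr1:78658038-78671512) was the one factor of ribosome biogenesis by name that fell. It is a retrotransposed copy of the X-linked Utp14a and is known in mouse for its need in the making of sperm. It had 1276 and 1650 normalized counts in WT and 833.9 and 656.5 in Lats1/2iΔLgr5, a 1.96-fold fall (log2 fold change -0.97 ± 0.22, adjusted p = 0.00136 in the authors' deposited table), while Utp14a rose 1.82-fold (adjusted p = 0.0188, authors' deposited table). The changes of the 2 copies had opposite signs. The Utp14b gene lies within Acsl3, a fatty acid activating enzyme gene on the same strand, and shares 244 of its 7679 exon bases with it (3.18%). Acsl3 went from 9029 and 10189 to 5399 and 4926 (-0.90 ± 0.14, adjusted p = 1.69e-06 in the authors' deposited table), and reads on the shared bases cannot be told apart while the counting settings are unknown here.

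DEAD-box and WD-repeat genes whose known work lies outside the nucleolus mostly rose where they were listed. Ddx39b, a helicase of messenger RNA splicing and export, had 1429 and 1493 normalized counts in WT and 2516 and 2621 in Lats1/2iΔLgr5 (log2 fold change 0.81 ± 0.14, adjusted p = 9.54e-06 in the authors' deposited table). Replicates were close in both groups. Ddx11, a DNA helicase of sister chromatid cohesion, rose 1.98-fold (adjusted p = 0.00787) and Ddx41 1.58-fold (adjusted p = 0.0118), both in the authors' deposited table. Wdr4, the partner of a methyltransferase of transfer RNA, went from 236.0 and 214.0 to 503.4 and 670.6 (1.38 ± 0.24, adjusted p = 3.6e-05 in the authors' deposited table), with groups far apart. Wdr5, a subunit of histone methyltransferase complexes, rose 1.84-fold (adjusted p = 7.02e-04), and Wdr6 rose 2.07-fold (adjusted p = 0.00342), both in the authors' deposited table. Without Lats1/2iΔLgr5 replicate 1, edgeR no longer called Ddx11, Ddx41 and Wdr6 (adjusted p = 0.0618, 0.0629 and 0.0526). Wdr35, Wdr62, Wdr73 and Wdr90 made up the other 4 that rose, by 1.98-fold to 2.60-fold.

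The Lats1/2iΔLgr5 libraries did not contribute equally to these increases. Replicate 2 was above replicate 1 in 72 of the 75 members that rose (96%), at a median ratio of 1.29 (range 0.850 to 1.66), and the exceptions were Nop10, Wdr18 and Wdr90. Among the other 1083 listed genes that rose, replicate 2 was the higher in 69.0%, at a median ratio of 1.09, and among genes that fell in 28.5%, at 0.917. In WT, replicate 2 was above replicate 1 in only 15 of the 75 (20%), at a median ratio of 0.849, against 45.1% and 0.969 among the other listed genes that rose. The summed cell cycle genes went the opposite way in WT, with 13633 in replicate 1 and 20284 in replicate 2, and the same way in Lats1/2iΔLgr5. The cause of the library differences was not tested, and with 2 libraries per group no test of them was made. The median log2 fold change over all 79 members was 1.05, and it was 0.89 without Lats1/2iΔLgr5 replicate 2, 1.24 without replicate 1, 1.14 without WT replicate 1 and 1.01 without WT replicate 2.

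**Figure D4:**
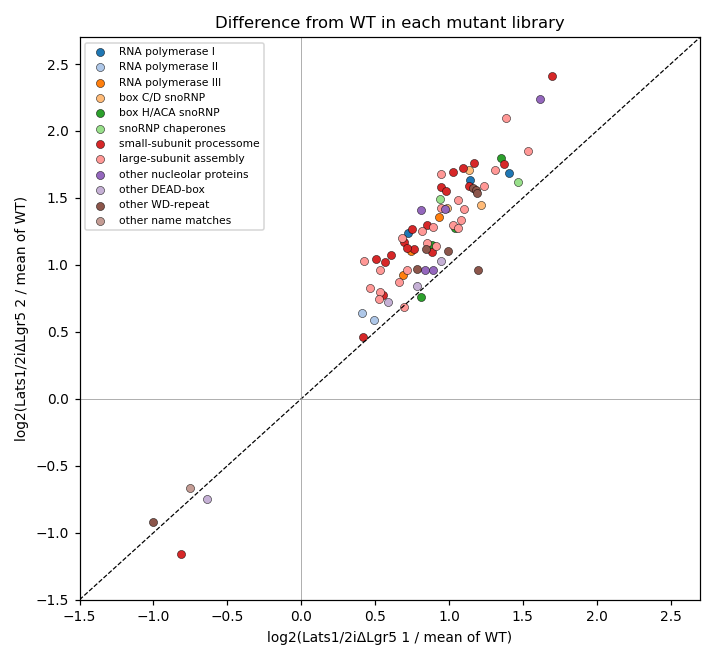
Log2 ratio of each Lats1/2iΔLgr5 library over the WT mean, replicate 1 on the horizontal and replicate 2 on the vertical axis, one point per member, coloured by role; the dashed line marks equal values. All members that rose lie in the upper right, 72 of 75 of them above the line, and the 4 that fell lie in the lower left.

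Genes of ribosome biogenesis that the name patterns miss mostly rose where they were listed. Of 103 such annotated genes, 45 had a row (43.7%, against 69.0% of the factors above and 11.9% of all annotated protein-coding genes), and 43 of these rose and 2 fell. Ruvbl2, an ATPase that helps to build box C/D snoRNPs, had 331.9 and 383.8 normalized counts in WT and 995.1 and 948.1 in Lats1/2iΔLgr5, a 2.71-fold rise (log2 fold change 1.44 ± 0.19, adjusted p = 3.02e-09 in the authors' deposited table). Its partner Ruvbl1 rose 2.54-fold (adjusted p = 2.53e-06), the large-subunit remodelling ATPase gene Mdn1 2.95-fold (adjusted p = 2.55e-07) and the nucleolar protein gene Lyar 2.75-fold (adjusted p = 1.1e-06), all in the authors' deposited table. The libraries of Ruvbl2 were close within each group, and replicate 1 was the higher in Lats1/2iΔLgr5, unlike most members. The genes that fell were Riok3, a kinase of small-subunit maturation, by 1.59-fold (adjusted p = 7.59e-04), and Sbds, which acts in the last step of large-subunit maturation, by 1.55-fold (adjusted p = 0.00704), in the authors' deposited table. Cd3eap, a further polymerase I subunit gene under another name, had 99.69 and 41.91 in WT and 211.0 and 255.6 in Lats1/2iΔLgr5. This 3.29-fold rise (adjusted p = 0.00823, authors' deposited table) was above those of the listed Polr1 genes. Myc, a transcription factor known to drive genes of ribosome biogenesis, went from 280.2 and 253.7 to 541.4 and 819.9, a 2.55-fold rise (adjusted p = 2.85e-04, authors' deposited table). A link between the level of Myc and those of the members was not tested.

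The name patterns do not use gene structure, and a minority of members hold other genes within them. The gene bodies of 8 of the 79 members hold annotated small nucleolar RNAs (10.1%), against 45 of 2529 other listed protein-coding genes (1.78%) and 279 of 21951 protein-coding genes in all (1.27%). Nop56 holds 5 of them, Nop58 4, Ncl, Gnl3 and Wdr43 3 each, Ppan and Ddx39b 2 each and Dkc1 1, which makes 23. The poly(A) libraries do not measure the small RNAs themselves. A total of 32 members share exon bases with another annotated gene, and those of Utp14b and Heatr1 (155 bases, opposite strand to Lgals8) share them with a listed gene. For Mrto4, Npm3, Utp14b and Wdr46, whose pseudogene copies carry matching names, reads of gene and copy may not be separated.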

How the data were processed

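RNA from sets of cryosections of the pylorus was made into strand-marked poly(A) libraries, per the labels' protocols. TopHat2 2.1.1, HTSeq, DESeq2 and the build GRCm38 are named in the submitters' processing notes; the sources used here do not give their settings, strand counting included. The deposited table holds whole-number counts per gene and library. Per the file headers, it also holds the authors' base mean (a signal, the mean of normalized counts), their log2 fold change with an error, the Wald statistic as a score, and their p-value and adjusted p-value. The largest deposited adjusted p-value is 0.05, so genes above it were not analysed here.

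Size factors of the authors could be recovered from base means and counts (0.792 and 0.907 for WT, 1.10 and 1.28 for Lats1/2iΔLgr5), and rebuilt base means deviated by at most 0.0119%. Normalized counts are counts divided by these factors, and folds are ratios of their group means. Replicates differed by more than sampling noise (chi-square over degrees of freedom, 114 for WT and 108 for Lats1/2iΔLgr5). Log2 fold changes and standard errors come from edgeR 4.0.16 (quasi-likelihood test, genotype as the one factor, filterByExpr filter, Benjamini-Hochberg adjustment over the table at 0.05), tested on simulated data. The same test with other settings, and DESeq2 1.42.0, were tried as alternatives. Because the table was selected on significance by the authors, edgeR's calls are not independent of theirs. In the text rose and fell mean a row in the authors' deposited table.

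Symbols came from GENCODE M21, which matched 2698 of 2701 IDs; coordinates are those of GENCODE on GRCm38, 1-based. The number of genes tested, 13137, is the median over genes of the value that links each deposited p to its adjusted p (quartiles 13124 and 13150). The named genes are each polymerase subunit with a row, up to 4 per role with the smallest deposited adjusted p, members that fell, the 5 with the largest deposited log2 fold change, and 4 biogenesis genes outside the name patterns. Bop1, Pes1, Utp6, Utp14a, Ddx21, Cd3eap, Myc, Acsl3, Riok3, Sbds and the ribosomal protein genes were named, and the 3 promoters shown were picked, after their values were seen. The values of 1 polymerase subunit gene are not reported here. Members and lists were chosen with earlier results of these data known.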

Additional observations from a re-analysis of the deposited data

How the results depend on the processing

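The sign of each of the 79 members was the same under all 10 alternatives. For the fits with single libraries left out, this follows from groups that did not overlap. The count of members called higher by edgeR was 75 with the authors' factors, TMM, DESeq2 size factors, DESeq2's Wald test and no low-count filter, and ranged from 0 to 73 with single libraries left out, the 0 coming without Lats1/2iΔLgr5 replicate 2 and 59 without replicate 1. Members called lower were 4, but 2 with TMM and 2 with DESeq2 size factors from the listed genes, and 0 to 4 with single libraries left out. The median log2 fold change of all members, 1.05, was 1.41 with TMM and 1.45 with DESeq2 size factors, since these scalings moved the listed genes up by a median of 0.36 and 0.41. TMM expects a majority of unaltered genes, which a table of called genes does not hold. A fit without 1 library leaves 1 in its group, which is assumed to vary like the other group. Its loss of calls then also reflects fewer samples. With the replicate number as a replicate block, 74 members were higher and 4 lower, and Utp6 was lost (adjusted p = 0.0739). The deviations of same-numbered libraries were only weakly related, with a negative sign (r = -0.16 across genes). A crossed pairing, added after seeing the data, gave 75 and 4. Most members had over 100 normalized counts, but the table gives no value for genes above the threshold, so the absence of a row shows neither a change nor its lack.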

Other observations

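Ribosomal protein genes encode the proteins that join ribosomal RNA in the subunits. Of 91 annotated protein-coding genes with ribosomal protein names (Rpl, Rps and Rplp, a pattern chosen after the data were seen), 8 had a row (8.79%), against 11.9% of all annotated protein-coding genes. Of these, 7 rose in the authors' deposited table, by 1.29-fold to 1.47-fold, among them Rpl23a (2480 and 2610 normalized counts in WT, 3828 and 3666 in Lats1/2iΔLgr5; adjusted p = 0.00232) and Rpl3 (14066 and 13760 against 18447 and 20328; adjusted p = 0.00767). Rplp0, a stalk protein of the large subunit, fell 1.46-fold, from 27866 and 29145 to 18829 and 20134 (adjusted p = 0.00107, authors' deposited table).

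Among the other marker lists, 1 of 5 parietal cell genes had a row and fell, 2 of 5 endocrine genes (Sst and Ghrl) rose, and 2 of 5 fibroblast genes and 1 of 4 endothelial genes fell. Of 6 intestinal genes 1 rose and 2 fell, of 6 squamous genes 1 rose and 1 fell, and 1 of 8 myeloid genes rose. The summed endocrine level was 318 in Lats1/2iΔLgr5 1 and 1625 in Lats1/2iΔLgr5 2, against 63.1 and 72.8 in WT, so it also differed between the replicates in which the ribosome biogenesis genes differed.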
